A study of Mus musculus with 8 samples.

Results

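The genes described here code for sodium, calcium and chloride channels, TRP channels, Piezo channels and their relatives in fibroblasts sorted from the colon of mice. They were chosen by gene symbol from the array's annotation: every transcript cluster (the array's unit, a set of probes for 1 transcript region) that named 1 gene of the Scn, Scnn1, Cacna, Cacnb, Cacng, Trpa, Trpc, Trpm, Trpv, Mcoln, Ano, Clcn, Piezo, Asic or Hcn families was taken. This gave 89 genes of the 30701 named genes on the array, each with 1 cluster. Trpc4ap, whose product binds a TRPC channel, and Trpc5os, an antisense transcript, met the symbol rule but code for no channel subunit.

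Gene expression was measured in fibroblasts of wild-type C57BL/6J mice that had been gated as lacking Epcam (epithelium), CD45 (leukocytes) and CD31 (endothelium) and carrying gp38 (podoplanin). The cells were then split by surface CD90, the protein of Thy1, into a CD90-negative population (samples 13, 15, 17 and 19) and a CD90-positive population (samples 14, 16, 18 and 20), with 4 samples and 4 arrays each. The design has both populations sorted from 4 mice. No label ties a sample to a mouse or tells whether cells were pooled, and neither age nor sex of the animals is given in the sources used here. The comparison asks how CD90-positive fibroblasts differ from CD90-negative ones, and since separate mice are not shown for the samples, a p-value covers only the spread among the arrays, which may be partly technical. Values are log2 expression as deposited, with the mean ± SD (n = 4 in each population), and every difference is CD90-positive minus CD90-negative with the standard error of limma, a linear model fitted across all genes. A gene was called when its limma p-value, adjusted by the Benjamini-Hochberg method over all 17221 genes tested, was under 0.05. Genes entered the test if 4 or more of the 8 samples were at or above 5.36, the median over all clusters.

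Ion channels let sodium, calcium, chloride or mixed cations cross a membrane down their gradients, and they open on a change of voltage, on a ligand, on stretch or on a rise of calcium in the cell. Voltage-gated channels consist of a pore subunit, which decides the ion and the voltage, and of auxiliary subunits, which bring the pore to the surface and tune its gating. In the gut wall such channels are best known from smooth muscle, from neurons, from the interstitial cells of Cajal that pace the muscle, and from the epithelium, where they absorb and secrete salt. In fibroblasts, which fire no action potentials, calcium entry through TRP and Piezo channels is known to report stretch and chemical stimuli.

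Thy1, the gene of the sort marker, had a mean of 5.52 ± 0.046 in the CD90-negative population and of 7.69 ± 0.47 in the CD90-positive population, without overlap. Of the fibroblast genes Col1a1, Col1a2, Col3a1, Dcn, Lum, Pdpn and Vim, the mean over the list was between 15.27 and 15.47 in CD90-negative and between 15.47 and 15.6 in CD90-positive samples. Single genes differed: Dcn, Lum and Vim were called higher (differences 0.75, 0.69 and 0.38) and Col1a2 lower (-0.72). Col1a1, Col3a1 and Pdpn were not called. Samples 13 and 14 differed from the other 6 in Xist, the RNA of X chromosome inactivation, at 16.16 and 16.27 against 5.89 to 9.32, so the results below were also computed without both. The array's negative control rows had medians between 6.79 and 6.84 in CD90-negative and between 6.58 and 6.67 in CD90-positive samples, with 6.73 over all 8. Where a mean lay below that level, the size of a difference is less certain. The control medians were lower in every CD90-positive sample, so the sign of a small difference in a dim gene is less certain too. The deposited scale reaches 19.85, above what a 16-bit scan allows (16), so differences are differences on this scale and not ratios of RNA amounts, and levels of different genes are not set against each other. In sorted bulk samples, fewer cells of a type and less RNA per cell cannot be told apart.

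Of the 89 genes, 41 were tested, and 18 of these were called, 7 of them with higher and 11 with lower expression in CD90-positive samples. Across all tested genes 29.7% were called, 14.0% as higher and 15.7% as lower. The share among the tested channel-family genes was 43.9%, but 3 of them (Trpa1, Scn2b and Ano2) reached the filter only through their CD90-negative samples and had to differ, so this share supports nothing by itself. Fitted without any filter, the same number, 18 of 89 (20.2%), were called, against 16.2% of all 30701 named genes. Changes of at least 1 on the log2 scale were seen in 12 called members, Trpa1 and Scn2b among them. Of all tested genes, 7.19% were called with such a change. The populations did not overlap in any of the 18 called members, and in 2 uncalled ones, Trpc1 and Clcn4. Of all tested genes, 32.3% did not overlap. For Trpa1, Scn2b and Ano2 the filter fixed this lack of overlap in advance. Counts and sizes over the tested members include these 3 genes and support nothing by themselves either. Among all 89 members, tested or not, 24 did not overlap, beside 21.2% of all named genes; the further 4 were the dim Scn11a, Cacng3, Cacng4 and Trpv4. The median difference of the 41 tested members was -0.02, beside -0.01 for all tested genes, and the median size of a difference without regard to sign was 0.29 beside 0.18. Within several families 1 member rose while another fell, as the accounts by family below show.

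**Figure D1:**
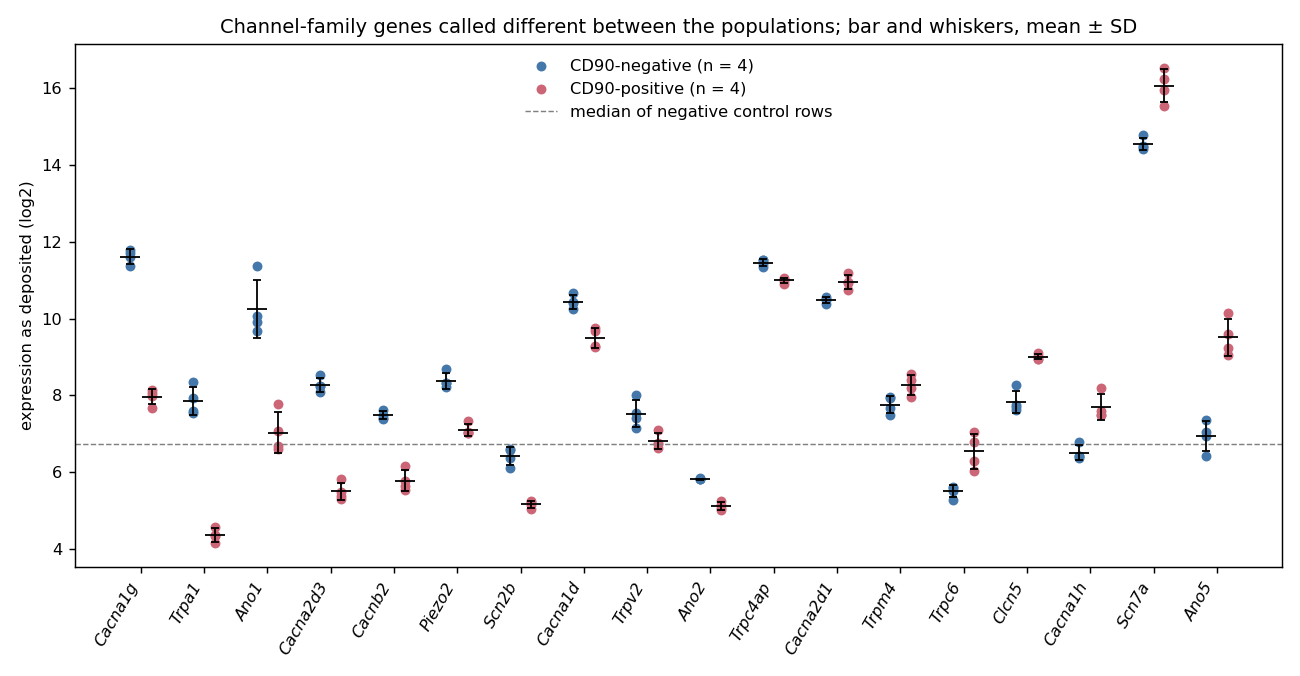
Expression (log2, as deposited) of the 18 called genes in each sample, with blue points for the 4 CD90-negative and red points for the 4 CD90-positive samples, bars and whiskers for the mean ± SD, and a dashed line at the median of the negative control rows (6.73). Genes are ordered from the lowest difference, Cacna1g (-3.65), to the highest, Ano5 (2.57), and the point that stands off most from its group is Ano1 in sample 13, at 11.37.

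The promoters of family members that moved in opposite directions are shown first, because they let the regulatory sequence be read beside the expression values. RefSeq's promoter table (build GRCm38.p6) held a window for 13 of the 18 called genes. Each line gives the 250 bases before the annotated start, 5′ to 3′ on the gene's strand, with capitals where a searched motif lies. Cacna2d3 (chr14:29721865-29722114, minus strand) and Ano1 (chr7:144738574-144738823, minus strand) were lower in the CD90-positive population. Cacna2d1 (chr5:15934441-15934690, plus strand) and Ano5 (chr7:51510779-51511028, plus strand) were higher.
Cacna2d3: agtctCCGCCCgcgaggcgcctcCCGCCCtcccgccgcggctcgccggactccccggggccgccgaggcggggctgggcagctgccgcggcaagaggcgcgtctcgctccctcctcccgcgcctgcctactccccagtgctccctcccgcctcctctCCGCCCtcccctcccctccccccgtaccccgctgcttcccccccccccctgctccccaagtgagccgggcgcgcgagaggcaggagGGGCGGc
Cacna2d1: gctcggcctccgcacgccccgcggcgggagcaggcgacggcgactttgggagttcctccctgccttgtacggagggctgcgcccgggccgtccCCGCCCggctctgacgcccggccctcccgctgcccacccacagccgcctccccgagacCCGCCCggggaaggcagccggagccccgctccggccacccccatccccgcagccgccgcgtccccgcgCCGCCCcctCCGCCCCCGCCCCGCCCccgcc
Ano1: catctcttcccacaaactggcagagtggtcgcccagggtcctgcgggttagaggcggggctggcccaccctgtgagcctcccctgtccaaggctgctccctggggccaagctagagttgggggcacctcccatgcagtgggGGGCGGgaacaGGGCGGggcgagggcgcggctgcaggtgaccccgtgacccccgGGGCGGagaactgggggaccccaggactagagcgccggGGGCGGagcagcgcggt
Ano5: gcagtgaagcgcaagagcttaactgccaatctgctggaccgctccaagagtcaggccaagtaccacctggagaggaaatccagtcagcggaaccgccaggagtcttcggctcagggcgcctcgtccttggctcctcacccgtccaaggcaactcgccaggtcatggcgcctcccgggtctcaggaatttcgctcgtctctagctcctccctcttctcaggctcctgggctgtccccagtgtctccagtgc
Motifs were searched on both strands. The letters were TATAAA for the TATA box and GGGCGG for the GC box, which Sp factors bind. For AP-1 they were TGANTCA, for the cAMP response element TGACGTCA and for forkhead factors TGTTTAC. For TEAD factors they were GGAATG and for SOX factors AACAAT. The capitals in these windows mark GC boxes. The window of Cacna2d1 held 6 of them, of which those at its end overlap, those of Cacna2d3 and Ano1 held 4 each, and the window of Ano5 held none of the searched motifs. Among called genes with a window, 5 of the 8 lower and 3 of the 5 higher ones had a GC box in at least 1 window, as had 35.4% of the table's 27025 genes counted the same way, and 5 of the 13 have several windows. Counted by single window the share in the table was 32.7% of 32851. No window of these 13 genes held the letters of the AP-1, cAMP response or forkhead motif, which 7.82%, 1.77% and 3.54% of the table's genes hold. The TATA box was in windows of 1 higher and 1 lower gene (14.3% of the table's genes), the TEAD motif in 1 and 1 (14.4%) and the SOX motif in 1 and 2 (10.9%). A match describes letters in the window and shows no binding.

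Voltage-gated sodium channels carry the rising phase of the action potential in neurons and muscle, and Scn7a codes for an atypical member that senses extracellular sodium instead of voltage and is known from glia and stromal cells. Scn7a was at 14.8, 14.51, 14.42 and 14.48 in CD90-negative samples 13, 15, 17 and 19, and at 15.53, 16.54, 15.97 and 16.24 in CD90-positive samples 14, 16, 18 and 20. Every CD90-positive sample lay above every CD90-negative one, and sample 14 was the lowest of its population. The difference was 1.52 ± 0.2 (SE; limma adjusted p = 0.00054), and 1.78 without samples 13 and 14. Markers of enteric glia were higher in the same population: all 6 tested genes of 8 in the list (Sox10, S100b, Gfap, Foxd3, Erbb3 and Cdh19) were called higher, and the list mean was between 5.48 and 5.79 in CD90-negative and between 6.76 and 7.79 in CD90-positive samples. Sox10, the factor that defines enteric glia, had means of 5.64 and 6.87, the first below and the second above the median of the negative control rows. Cdh19, a glial cadherin, was also lowest of the CD90-positive samples in sample 14, at 8.97 against 10.07 to 11.74. So were Sox10, S100b, Gfap and Erbb3, while Foxd3 was highest there, at 5.88 against 5.79 to 5.85. The order is not particular to glial genes: Thy1 was lowest in sample 14 too, at 7.03 against 7.69 to 8.11. Gfap reached the filter only through CD90-positive samples, so its direction was given by the filter, and the unequal-variance test did not call Gfap and Foxd3 (adjusted p = 0.069 and 0.065). In these 2 genes both means lay under the negative control level, and the part of these cells in the level of Scn7a was not tested.

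The other pore subunits of this family were dim. Scn2a, a neuronal pore, was tested with means of 6.28 and 6.1, both below the negative control rows (difference -0.17, 95% interval -0.35 to 0.01; limma adjusted p = 0.136). Scn1a, Scn3a, Scn8a, Scn9a, Scn10a and Scn11a did not reach the filter and had population means between 4.03 and 4.37. The beta subunits are small proteins with an immunoglobulin fold that bind the pore and neighbouring cells. Scn2b was at 6.11, 6.61, 6.38 and 6.58 in the CD90-negative and at 5.24, 5.21, 5.05 and 5.13 in the CD90-positive samples. It was called lower, by -1.26 ± 0.11 (SE; limma adjusted p = 6.6e-05), with both means below the negative control rows. Scn3b and Scn4b were not tested and had means between 3.87 and 5.1. Of markers of enteric neurons, which carry most of these channels, 3 tested genes of 8 measured (Uchl1, Stmn2 and Ret) were called higher in the CD90-positive population, while the pan-neuronal Elavl4 and Snap25 had means between 4.15 and 4.79, under the filter. The neuron list's mean was between 4.92 and 5.01 in CD90-negative and between 5.73 and 5.81 in CD90-positive samples. Without Stmn2, which differed by 4.70, the means of the other 7 genes were between 4.76 and 4.78 and between 4.96 and 5.08, and in all 7 both means lay under the negative control level. Ret reached the filter only through CD90-positive samples, and Uchl1 was not called by the unequal-variance test (adjusted p = 0.0812).

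Voltage-gated calcium channels open on depolarization, and among their pores 1 rose, 2 fell and 2 were tested but not called. The low-threshold (T-type) pores, which open near the resting potential, moved in opposite directions. Cacna1g was at 11.61, 11.36, 11.8 and 11.71 in CD90-negative samples and at 8.07, 7.68, 8.15 and 7.98 in CD90-positive ones. The samples spanned 0.43 and 0.46 within the populations, and the closest samples of the populations were 3.22 apart. The difference of -3.65 ± 0.13 (SE; limma adjusted p = 3.6e-07) was the lowest of the 41 tested members, and stayed at -3.69 without samples 13 and 14. Cacna1h, the gene of another T-type pore, was at 6.79, 6.38, 6.42 and 6.41 in CD90-negative and at 8.19, 7.48, 7.6 and 7.5 in CD90-positive samples. It rose by 1.19 ± 0.17 (SE; limma adjusted p = 0.000848) from a CD90-negative mean below the negative control rows, and samples 13 and 14 were the highest of their populations. Cacna1i, the remaining T-type gene, did not reach the filter.

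L-type pores open at stronger depolarization and supply the calcium for contraction of smooth muscle. Cacna1d was at 10.68, 10.43, 10.25 and 10.4 in CD90-negative and at 9.76, 9.69, 9.25 and 9.28 in CD90-positive samples, and fell by 0.94 on the log2 scale (SE 0.14; limma adjusted p = 0.00128). Cacna1c, the main L-type pore of smooth muscle, had overlapping values of 7.36 ± 0.18 and 7.51 ± 0.52 (difference 0.15, 95% interval -0.39 to 0.69; limma adjusted p = 0.691). In the CD90-positive population its values ran from 7 in sample 16 to 8.22 in sample 14. Cacna1a, a pore of nerve endings, had means of 6.82 and 6.96 (95% interval of the difference -0.25 to 0.54, limma adjusted p = 0.57). The CD90-negative mean lay within the range of the negative control medians of that population (6.79 to 6.84). Cacna1b, Cacna1e, Cacna1f and Cacna1s, pores of neurons, retina and skeletal muscle, were not tested, and with Cacna1i had means between 4.3 and 4.96. The unequal-variance test did not call 2 of the smooth muscle genes named next, Des and Actg2 (adjusted p = 0.0528 and 0.121), and without the filter limma did not call Actg2 (adjusted p = 0.0506). Smooth muscle markers went both ways between the populations: Des, Cnn1, Actg2 and Lmod1 were called higher, Smtn and Synpo2 lower, and Myh11 was not called. List means were between 8.17 and 8.88 in CD90-negative and between 8.54 and 9.64 in CD90-positive samples. Sample 14 was the highest CD90-positive sample in every gene of this list, so the upper end, 9.64, is its own. It had Myh11 at 12.58 against 10.83 to 10.87, and Actg2 at 11.79 against 10.08 to 10.2. Cnn1 was at 9.65 there against 8.01 to 8.28. Both means of Lmod1 (5.23 and 6.16) lay under the negative control level. The part of smooth muscle in the calcium channel values was not tested.

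The auxiliary subunits of calcium channels were also split. Alpha2delta subunits sit on the outer face, and raise the number of channels at the surface. Cacna2d3 was at 8.08, 8.52, 8.25 and 8.24 in CD90-negative and at 5.81, 5.31, 5.49 and 5.39 in CD90-positive samples, where it lay below the negative control rows. The difference was -2.77 ± 0.13 (SE; limma adjusted p = 1.59e-06). Cacna2d1 was at 10.57, 10.51, 10.39 and 10.48 in CD90-negative and at 11.18, 10.96, 10.93 and 10.74 in CD90-positive samples. It rose by 0.47 ± 0.095 (SE; limma adjusted p = 0.00613), a small change that left the closest samples of the populations 0.18 apart. Cacna2d2 and Cacna2d4 were not tested and had means between 4.49 and 4.82.

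Beta subunits bind the pore from the inside and carry it to the membrane. Cacnb2 was at 7.49, 7.42, 7.63 and 7.39 in CD90-negative and at 6.16, 5.65, 5.78 and 5.53 in CD90-positive samples, where it lay below the negative control rows. The difference was -1.7 ± 0.13 (SE, limma adjusted p = 2.58e-05). Cacnb1 was at 7.54, 7.83, 7.54 and 7.68 against 8.06, 8.07, 7.76 and 7.86, with overlap, and was not called (difference 0.29, 95% interval 0.06 to 0.52; limma adjusted p = 0.0588). It was called higher with the stricter filter (limma adjusted p = 0.0496), without sample 15 (0.0351) and without sample 18 (0.0406). Of the gamma subunits and their relatives, the AMPA receptor regulators of neurons, Cacng7 was the only tested one, at 10.39, 9.62, 9.96 and 9.86 against 10.06, 9.61, 9.7 and 9.71 (95% interval of the difference -0.56 to 0.19; limma adjusted p = 0.44). The other 6, Cacng1 to Cacng6, had means between 4.08 and 5.23, and the remaining beta subunit gene, Cacnb4, of 5.01 and 5.11.

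**Figure D2:**
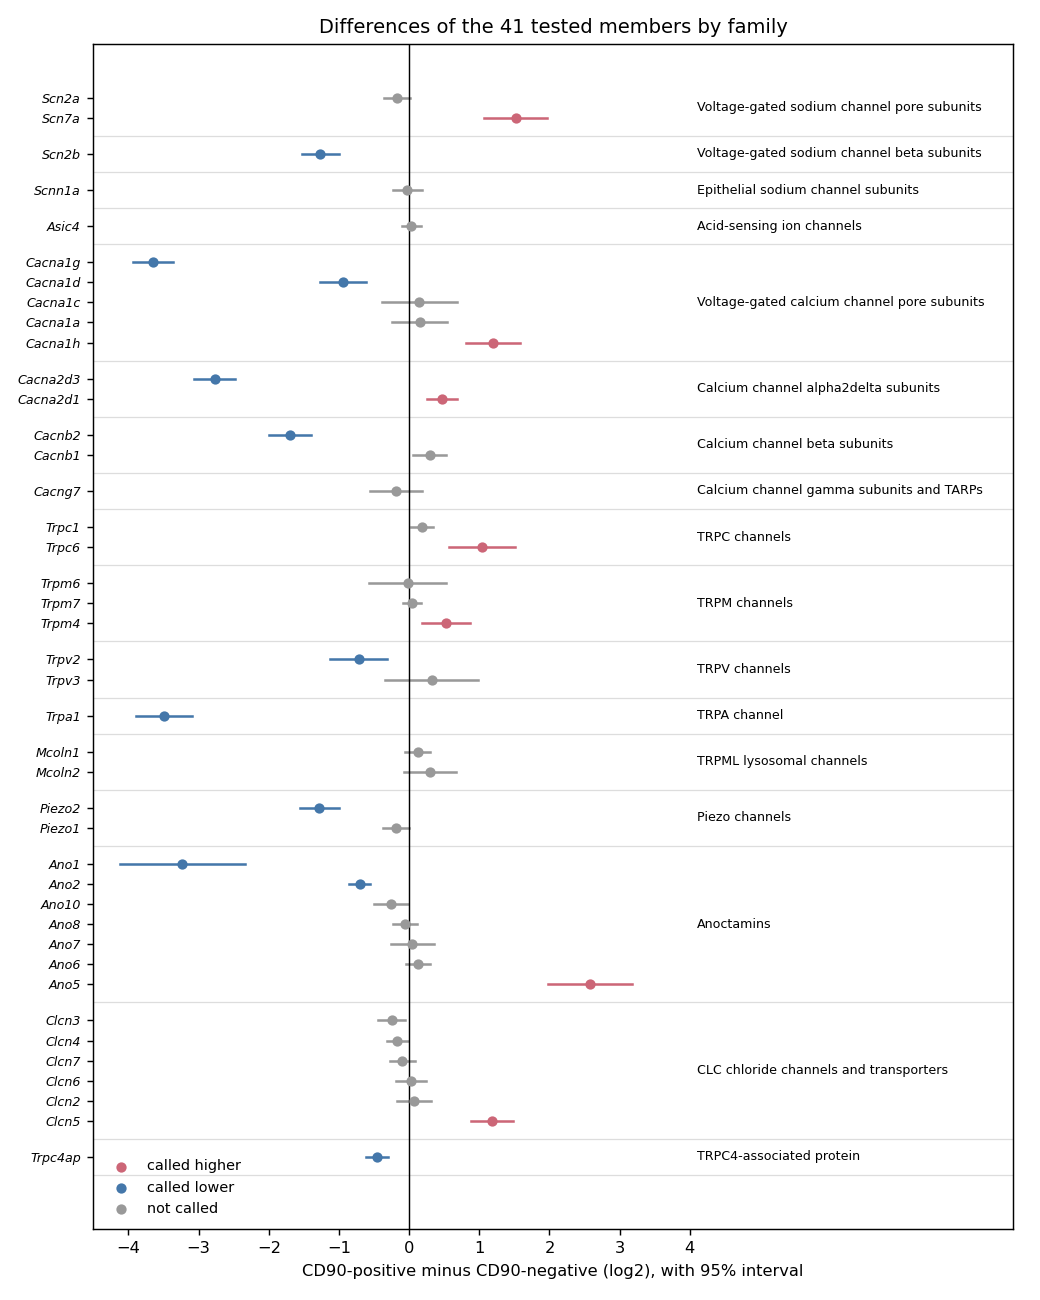
Difference between the populations (CD90-positive minus CD90-negative, log2) for the 41 tested genes, grouped by family, with points for the estimate and lines for its 95% interval from limma; red marks genes called higher, blue genes called lower and grey genes not called. Calcium channel pores run from -3.65 (Cacna1g) to 1.19 (Cacna1h) and anoctamins from -3.23 (Ano1) to 2.57 (Ano5), while the CLC genes other than Clcn5 lie between -0.25 and 0.07.

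TRP channels are cation channels, most of them calcium-permeable, that answer to irritants, temperature, lipids or stretch. Trpa1, the receptor for mustard oil and other reactive irritants, best known from sensory neurons, showed the second lowest difference of the members. Trpa1 was at 8.34, 7.93, 7.55 and 7.59 in CD90-negative samples and at 4.58, 4.35, 4.15 and 4.34 in CD90-positive samples, where it lay below the filter. The difference was -3.5 ± 0.18 (SE; limma adjusted p = 2.5e-06), and -3.41 without samples 13 and 14. Trpv2, a channel linked to stretch and phagocytosis, was at 8, 7.16, 7.53 and 7.41 in CD90-negative and at 7.11, 6.63, 6.72 and 6.76 in CD90-positive samples. Sample 15 of the one and sample 14 of the other population were only 0.045 apart, and the difference was -0.72 ± 0.18 (SE; limma adjusted p = 0.016). An unequal-variance test per gene, on the same values, did not call it (adjusted p = 0.0688). Trpv3, a warmth-sensitive channel of keratinocytes, had overlapping means of 5.58 ± 0.31 and 5.91 ± 0.61 (95% interval of the difference -0.34 to 0.98; limma adjusted p = 0.446). Trpv1, Trpv4, Trpv5 and Trpv6 were not tested and had means between 4.4 and 5.23; Trpv5 and Trpv6 are the calcium-absorbing channels of kidney and gut epithelium.

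Among the TRPC channels, which open after phospholipase C activation, Trpc6 was called higher. It is known from smooth muscle, podocytes and myofibroblasts, where it opens on diacylglycerol. Its values were 5.28, 5.59, 5.62 and 5.52 in CD90-negative and 7.04, 6.04, 6.78 and 6.29 in CD90-positive samples (difference 1.03 ± 0.21, SE; limma adjusted p = 0.00561). Both means lay below the negative control rows, and the difference was 0.79 without samples 13 and 14. An unequal-variance test per gene did not call it (adjusted p = 0.0617). Trpc1 was at 9.42, 9.34, 9.34 and 9.29 against 9.5, 9.68, 9.52 and 9.42, and was not called (difference 0.18, 95% interval 0.02 to 0.35; limma adjusted p = 0.0842), although quantile normalization and array weights each gave a call (limma adjusted p = 0.0444 and 0.047). Trpc4, Trpc5 and Trpc7 were not tested, with means between 4.06 and 4.83, and neither was the antisense Trpc5os, with 4.06 and 4.28.

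In the TRPM family, Trpm4, a calcium-activated channel for monovalent cations, was called higher. Trpm4 was at 7.95, 7.5, 7.66 and 7.92 in CD90-negative and at 7.96, 8.19, 8.4 and 8.56 in CD90-positive samples. Samples 13 and 14 were only 0.011 apart, and the difference was 0.52 ± 0.15 (SE; limma adjusted p = 0.0303). The call was lost when sample 15, 16, 17, 18 or 20 was left out, each alone (limma adjusted p between 0.0511 and 0.0792), and in an unequal-variance test per gene (adjusted p = 0.0807), and without samples 13 and 14 the difference was 0.69 (limma adjusted p = 0.00856). Trpm7, a magnesium-permeable channel joined to a kinase and found in most cells, was nearly level at 11.18, 11.29, 11.28 and 11.31 against 11.3, 11.34, 11.31 and 11.27 (95% interval of the difference -0.09 to 0.17; limma adjusted p = 0.634). Trpm6, its relative in the magnesium-absorbing epithelium of kidney and colon, ranged from 5.68 to 6.72 in CD90-negative samples with sample 13 highest, and was not called (limma adjusted p = 0.966). Trpm1, Trpm2, Trpm3, Trpm5 and Trpm8 were not tested and had means between 4.18 and 4.87. The lysosomal TRPML channel gene Mcoln1 was at 8.59, 8.34, 8.37 and 8.44 against 8.71, 8.51, 8.48 and 8.53 (95% interval of the difference -0.06 to 0.3; limma adjusted p = 0.294). Mcoln2 was tested below the negative control rows and not called (limma adjusted p = 0.201), and Mcoln3 was not tested. Trpc4ap, which codes for a TRPC4-associated protein and not a channel, was at 11.53, 11.34, 11.43 and 11.52 against 10.91, 10.97, 11.03 and 11.07 (difference -0.46 ± 0.069, SE; limma adjusted p = 0.00123).

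Piezo channels open directly on membrane tension. Piezo2, the touch and proprioception channel of sensory neurons and Merkel cells, was at 8.69, 8.32, 8.31 and 8.21 in CD90-negative and at 7.34, 7.01, 7.05 and 7.03 in CD90-positive samples. It was called lower by -1.28 ± 0.12 (SE; limma adjusted p = 8.24e-05), with no overlap. Piezo1, the widely expressed stretch channel of endothelium, red cells and fibroblasts, was at 10.96, 10.87, 11.04 and 11.06 against 10.62, 10.91, 10.88 and 10.79. Its values overlapped and it was not called (difference -0.18 with an upper 95% bound of 0.0045; limma adjusted p = 0.132), except with array weights (-0.2; limma adjusted p = 0.0362).

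Anoctamins include calcium-activated chloride channels and lipid scramblases, and their tested members spanned nearly the whole range of the differences seen here. Ano1, the chloride channel of secretory epithelium and the standard marker of interstitial cells of Cajal, was at 11.37, 10.07, 9.92 and 9.68 in CD90-negative samples and at 7.77, 6.6, 6.69 and 7.06 in CD90-positive samples. Samples 13 and 14 were the highest of their populations, and the closest samples of the populations were 1.91 apart. The difference was -3.23 ± 0.39 (SE; limma adjusted p = 0.000337), and -3.11 without samples 13 and 14. Kit, the receptor that defines interstitial cells of Cajal, was at 10.56 in sample 13, between 6.63 and 7.49 in the other CD90-negative samples and between 6.49 and 7.61 in the CD90-positive samples, and was not called (limma adjusted p = 0.405). Of the 4 measured genes of 6 in the list of these cells, Ano1 itself and the gap junction gene Gja1 were called lower, and Thbs4 was not called. The mean of the 3 genes other than Ano1 was between 8.3 and 9.77 in CD90-negative and between 7.56 and 8.03 in CD90-positive samples, and with Ano1 it was between 8.74 and 10.17 and between 7.32 and 7.79. In CD90-negative samples 15, 17 and 19, with Kit at 7.49, 6.63 and 6.96, Ano1 was between 9.68 and 10.07. Gja1 was between 10.65 and 10.9 in the same samples, and between 8.62 and 9.28 in the CD90-positive samples. The part of interstitial cells of Cajal in the level of Ano1 was not tested.

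Ano5, a member known from skeletal muscle and bone and linked to membrane repair, had the highest difference of all members. Ano5 was at 6.95, 6.42, 7.36 and 7.04 in CD90-negative and at 9.06, 9.24, 10.15 and 9.61 in CD90-positive samples, a difference of 2.57 ± 0.26 (SE; limma adjusted p = 0.000134). Ano2, a calcium-activated chloride channel of olfactory and retinal neurons, was at 5.84, 5.81, 5.81 and 5.81 against 5.24, 5.14, 5.07 and 5.0. It was called lower by -0.7 ± 0.065 (SE; limma adjusted p = 7.7e-05), with every value below the negative control rows. Ano6, a widely expressed scramblase that exposes phosphatidylserine, was at 12.11, 12.02, 12.12 and 12.12 against 12.38, 12.2, 12.1 and 12.19 (95% interval of the difference -0.04 to 0.29; limma adjusted p = 0.235). Ano8, which tethers the endoplasmic reticulum to the plasma membrane, and Ano10 were not called, with means of 7.45 and 7.4 for Ano8 and of 8.52 and 8.27 for Ano10. Ano10 was called lower with samples 13 and 14 as a block (limma adjusted p = 0.0391). Ano7 was tested below the negative control rows and was not called, and Ano3, Ano4 and Ano9 were not tested, with means between 4.55 and 5.28.

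Of the CLC genes, which code for plasma membrane chloride channels and for endosomal and lysosomal exchangers of chloride and protons, Clcn5 was the only one called. Clcn5, an endosomal exchanger needed for protein uptake in kidney tubules, was at 8.26, 7.63, 7.75 and 7.71 in CD90-negative and at 8.96, 9.03, 8.95 and 9.11 in CD90-positive samples. The CD90-positive samples spanned only 0.16, and the difference was 1.18 ± 0.13 (SE; limma adjusted p = 0.000225). Clcn6, a late endosomal exchanger, was at 10.17, 9.81, 9.96 and 10.1 against 9.87, 10.13, 10.08 and 10.04 (95% interval of the difference -0.19 to 0.24; limma adjusted p = 0.888). Clcn7, a lysosomal exchanger that osteoclasts need to acidify their resorption space, had a difference of -0.1 (95% interval -0.28 to 0.08, limma adjusted p = 0.39). Clcn3 and Clcn4 missed the threshold with differences of -0.25 and -0.17 (limma adjusted p = 0.0575 and 0.0986). Clcn3 was called lower in 5 alternatives, with limma adjusted p between 0.0353 and 0.0487, and Clcn4 with array weights (limma adjusted p = 0.027). Clcn2 was tested below the negative control rows and was not called, and Clcn1, the skeletal muscle channel, was not tested.

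Channels of salt-absorbing epithelium, of acid sensing and of pacemaking were dim, with every population mean below the negative control rows. Of the epithelial sodium channel subunits, Scnn1a was at 5.88, 5.68, 5.79 and 5.7 against 5.62, 5.59, 5.88 and 5.85 (95% interval of the difference -0.23 to 0.18; limma adjusted p = 0.859), and Scnn1b and Scnn1g were not tested, with means between 4.26 and 4.59. Epithelial markers were measurable in these samples, with 8 of 8 tested; limma called none, none had an unadjusted p under 0.05, and the unequal-variance test called none. Samples 13 and 20 were highest, with list means from 7.38 to 9.42 in CD90-negative and from 7.7 to 9.52 in CD90-positive samples. Of the acid-sensing channels only Asic4 was tested, at 5.58, 5.73, 5.59 and 5.66 against 5.66, 5.66, 5.72 and 5.65 (limma adjusted p = 0.73), while Asic2, Asic3 and Asic5 had means between 4.32 and 4.7. The HCN genes, whose channels carry the pacemaker current of heart and neurons, had no tested member, and Hcn4 was at 4.27, 4.36, 4.39 and 4.19 against 4.34, 4.34, 4.45 and 4.34; Hcn2 and Hcn3 were not tested either. In all, the 48 untested members had values between 3.74 and 5.68 in single samples and mean differences between -0.16 and 0.29.

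Samples within a population also differed from each other across these genes. Sample 13 was the highest CD90-negative sample in 27 of the 41 tested members (65.9%), where it was highest in 24.8% of all tested genes. Sample 14 was the highest CD90-positive sample in 20 of 41 (48.8%), beside 30.3% of all tested genes. The largest single deviation from a population mean was that of Ano1 in sample 13, by 1.11, followed by Ano1 in sample 14, by 0.74. Without sample 13 alone 8 members were called higher and 11 lower, and without samples 13 and 14 the counts were also 8 and 11.

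**Figure D3:**
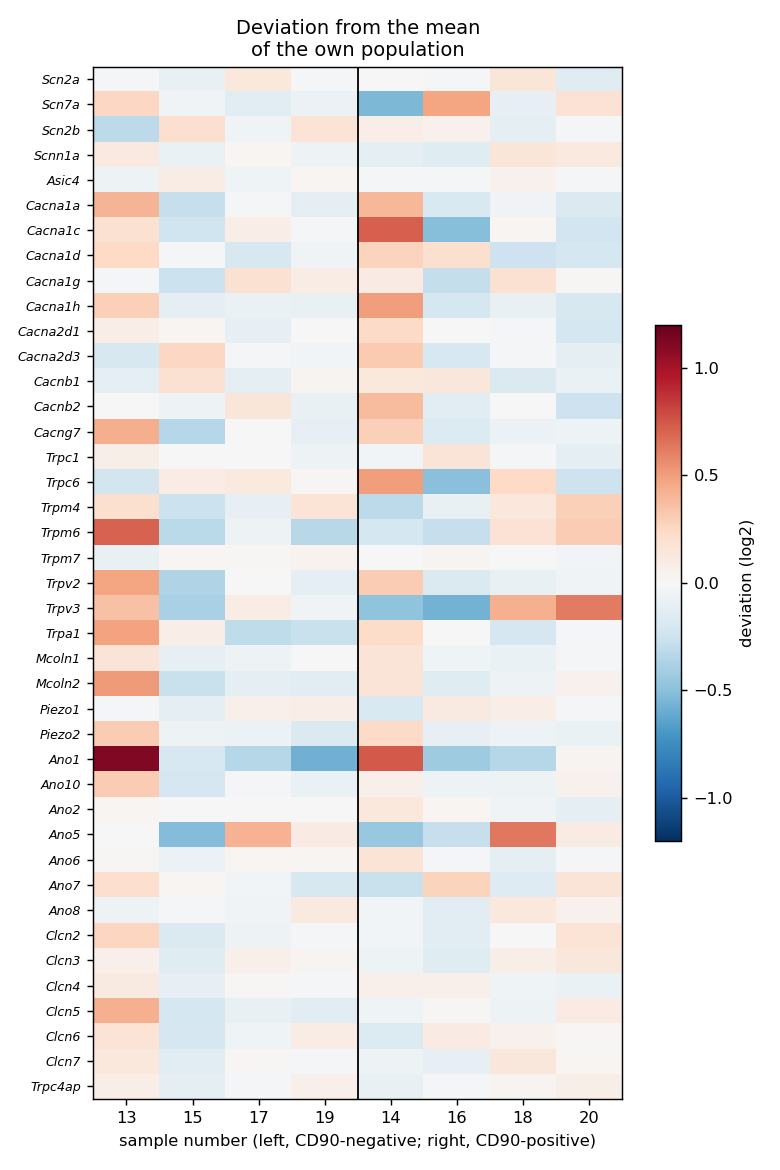
Deviation of each sample from the mean of its own population (log2, red above and blue below) for the 41 tested genes in rows and the 8 samples in columns, with CD90-negative samples on the left and CD90-positive samples on the right of the line. The column of sample 13 is mostly red, with Ano1 at 1.11, and the population difference itself is taken out of the picture.

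Genes that work with these channels were looked up in 6 lists. Of the 7 tested regulators of sodium channels, 2 rose and 1 fell. The intracellular factor Fgf12 rose by 1.19 from a mean under the filter (limma adjusted p = 0.000461), with both means under the negative control level. Ank3, the ankyrin that anchors sodium channels in axons, rose by 1.49 from a mean under that level (limma adjusted p = 0.00393). Nedd4l, the ligase that removes epithelial sodium channels from the surface, fell by 0.58 (limma adjusted p = 0.0024). Of 5 tested calcium channel regulators, among them the small GTPases Gem and Rrad that block these channels, limma called none, none had an unadjusted p under 0.05, and the unequal-variance test called none. Of 7 genes of store-operated calcium entry, in which STIM sensors of the emptied store open ORAI pores, 3 fell and none rose: Saraf, a brake on this entry, by 0.66, Orai2 by 0.46 and Orai3 by 0.31 (limma adjusted p = 0.000285, 0.00562 and 0.0317). Orai2 reached the filter only through CD90-negative samples, which gave its direction, and both its means lay under the negative control level. Orai3 overlapped between the populations and was not called by the unequal-variance test (adjusted p = 0.0605). The main pore Orai1 and the sensors Stim1 and Stim2 were not called.

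The remaining 3 lists held other channels. Tpcn1, a channel of endosomes and lysosomes, fell by 0.56 (limma adjusted p = 0.0197), the single call among 3 tested other cation channels and partners, and was not called by the unequal-variance test (adjusted p = 0.0599). Among 6 tested other mechanosensitive channels and Piezo partners, Mdfic, which binds Piezo channels, fell by 0.24 (limma adjusted p = 0.0384), a call lost without the filter (limma adjusted p = 0.0549) and in the unequal-variance test (adjusted p = 0.0701). Of 14 tested other chloride channels and partners, 4 rose and 2 fell. Best1 and the Lrrc8 genes other than Lrrc8c are named because of their values, outside the naming rule. Within the volume-regulated LRRC8 channel, Lrrc8c fell by 1.79 and Lrrc8b rose by 1.21 (limma adjusted p = 0.00135 and 0.0132). Lrrc8b rose from a mean of 5.64, under the negative control level, and was not called by the unequal-variance test (adjusted p = 0.0535). Lrrc8e did not reach the filter, with means of 4.36 and 5.32 under that level. Fitted without the filter, Lrrc8e was called higher (limma adjusted p = 0.00108). The obligatory subunit Lrrc8a, at 11.63 and 11.69, and Lrrc8d were not called (limma adjusted p = 0.641 and 0.146). Ttyh3 and Ttyh1, of the tweety family, rose by 0.56 and 0.66, and Best1, a bestrophin channel, by 0.71 (limma adjusted p = 0.000251, 0.00153 and 0.00613). Ostm1, the partner of the lysosomal exchanger of Clcn7, fell by 0.43 (limma adjusted p = 0.00397). Over the 6 lists 6 genes were called higher and 8 lower, in all 14 of 42 tested (33.3%), close to the 29.7% of all tested genes; 4 of the 14 calls were lost in the unequal-variance test.

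Markers of further cell types that a sort of colon stroma could hold also differed. Of pericyte genes, Kcnj8 and Abcc9, which form a potassium channel, and Cspg4 were called lower, with differences of -2.1, -3.37 and -1.53. Rgs5 and Notch3 were called higher. Rgs5 overlapped and was not called by the unequal-variance test (adjusted p = 0.138). Notch3 differed by 0.23, and both its means (5.88 and 6.12) lay under the negative control level. List means ran from 7.46 to 7.77 in the CD90-negative and from 6.58 to 6.87 in the CD90-positive samples. Of endothelial genes, Prox1 and Lyve1 of lymphatic vessels were called lower, and Pecam1, the gene of the CD31 gate, was not called. In 7 of the 8 genes, all but Lyve1, both means lay under the negative control level. The CD90-positive mean of Lyve1 (5.9) did too. These list means ran from 5.58 to 6.05 and from 5.24 to 5.98. Of leukocyte genes, Cd68, Cd3e and Cd79a were called higher while Ptprc, the gene of the CD45 gate, stayed under the filter, with list means from 5.56 to 5.73 and from 5.74 to 6.06. The unequal-variance test called none of these 3 (adjusted p = 0.0739, 0.109 and 0.0829), Cd3e overlapped, and both means of Cd3e and Cd79a lay under the negative control level. Of mesothelial genes, Upk3b and Gpm6a were called higher, the former having reached the filter only through CD90-positive samples, and Msln stayed under the filter. In all 6 genes of this list both means lay under the negative control level, with list means from 5.01 to 5.17 and from 5.5 to 5.95. The part of these cells in the channel values was not tested.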

How the data were processed

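RNA of sorted colon fibroblasts was measured on 8 one-colour Affymetrix mouse arrays after amplification from a small input, per the labels' protocols. The authors deposited log2 values, made with Affymetrix Expression Console 1.1 and RMA (background correction, quantile normalization, probe summary), per the submitters' processing notes; settings and genome build are not given in the sources used here. Of the 65956 transcript clusters, 31258 named 1 gene in the platform's annotation after older symbols were updated through RefSeq's mouse table (GRCm38.p6), giving 30701 genes; the other 6732 rows are controls. For a gene with several clusters the one of highest mean was used, and 17221 genes passed the filter.

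Populations were compared with limma 3.58.1 in R 4.3.3 (lmFit, eBayes, two-sided, no block), and the p-values were adjusted over all tested genes. The step was tested on simulated data. Of 67 genes given a change of 0.5 on the log2 scale, 55.2% were called in the right direction. Of 67 given a change of 1, 89.6% were. The simulation called 168 genes, far fewer than the 5117 called here, so these shares need not hold for the data. A small change can thus be missed, and a gene not called is not shown to be level. Alternatives changed the filter, scaling, variance model, array weights, choice of cluster, block and samples; the unequal-variance test of single genes and list means without Stmn2 or Ano1 were added after seeing the data. Cell type and partner genes came from short lists. Every called member, and the member with the highest mean of each family, is given with all 8 values; other tested members above the negative controls are named; of each partner list up to 4 called genes with the smallest p are named; exceptions are marked. The members and lists were chosen with earlier results of these data known. The number of arrays limits the precision. Figures used matplotlib 3.10.9.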

Additional observations from a re-analysis of the deposited data

Results flagged for a closer look

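In 5 of 66 groups of 4 samples examined, 1 sample lay further from the other three than Dixon's 95% limit allows; chance flags about 1 in 20 groups. Cacna1h was at 6.79 in CD90-negative sample 13, where the other CD90-negative samples lay between 6.38 and 6.42. Piezo2 was at 7.34 in CD90-positive sample 14, with the others between 7.01 and 7.05. Ano2 was at 5.84 in CD90-negative sample 13 and at 5.81 in the other samples of that population, a gap of small size. Ano6 was at 12.02 and Clcn3 at 7.53 in CD90-negative sample 15, each below the others of its population. The calls of Cacna1h, Piezo2 and Ano2 were kept when any 1 sample was left out.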

How the results depend on the processing

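Called members kept their direction in each of the 18 alternatives that gave a value, and 15 of the 18 kept their call in every one that tested them. Trpm4 lost it in 5 settings that leave out 1 sample, and Trpm4, Trpc6 and Trpv2 lost it in the unequal-variance test per gene. The count of members called higher ranged from 5 to 9 and that called lower from 10 to 14 over all alternatives, lowest with that test (for lower calls also with the stricter filter) and highest with array weights; leaving out 1 sample gave 6 to 8 and 11 to 12. Partner genes called lower numbered 8, but 5 after quantile normalization, 5 with the unequal-variance test per gene, and 5 to 8 when 1 sample was left out, 5 being without sample 20; the cause was not tested. No paired analysis was possible because the labels give every sample its own number and tie none to a mouse. Whether the spread among the arrays holds differences between mice is therefore not known. Over all tested genes, centring each sample on its median changed the share of higher calls from 47.2% to 37.9% and the median difference from -0.01 to -0.06. Dim genes are limited by their nearness to the negative control rows: Scn2b, Ano2 and Trpc6 were called with both means below them.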
